A study of Saccharomyces cerevisiae with 8 samples.

Results

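Glycerol synthesis, use and uptake in baker's yeast, Saccharomyces cerevisiae, were followed through the mRNA of 9 genes. These were GPD1, GPD2, GPP1 and GPP2 for synthesis, GUT1, GUT2 and GCY1 for use, STL1 for uptake, and HOG1 for the signalling pathway that controls synthesis. They were taken by name, each through its brightest Affymetrix probe set assigned to a single gene, out of 5656 genes named on the array. Every member had exactly 1 such probe set, and all 9 passed the filter on dim probe sets that left 5188 genes for testing. Cells of a commercial compressed yeast, for which the labels used here name no strain or genotype, were suspended at an OD600 of 30 in a fermentation medium without sucrose and maltose, per the labels' protocols. The suspensions spent 0, 3, 7 or 14 days at -20 °C and were then thawed for 10 min at 30 °C before poly(A) RNA was taken, which all 4 groups share. Each time had 2 samples, described as independent, with 1 array each. Where the labels name no separate cultures, p-values measure the spread between these samples, which may be partly technical.

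Glycerol is the main compatible solute of yeast: it balances the osmotic strength of the medium and is known as a cryoprotectant. Gpd1 and Gpd2 reduce dihydroxyacetone phosphate to glycerol 3-phosphate, and Gpp1 and Gpp2 remove the phosphate. Glycerol returns to central metabolism through the kinase Gut1 and the mitochondrial dehydrogenase Gut2, and Stl1 brings it in from the medium together with a proton. The kinase Hog1, activated by phosphorylation in hyperosmotic medium, drives transcription of GPD1, GPP2 and STL1, whereas GPD2 is known for its induction under lack of oxygen, where glycerol formation reoxidises NADH.

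Values below are normalised signals, that is probe set intensities after quantile normalisation, on a linear scale whose floor was 2.52. Levels are compared between arrays for one gene and not between genes. The deposited arrays had medians of 51.7 to 110. The 3' to 5' signal ratio of ACT1, a measure of RNA length, ran from 1.41 to 2.86, with the highest values on 0 day replicate 2 (2.86) and 3 day replicate 1 (2.78). The mean signal of 10 ribosomal RNA probe sets over the array median was 13.0 to 21.0 at 0 and 3 days and 23.1 to 32.9 at 7 and 14 days. The 0 day arrays stood apart from each other: across genes they correlated at 0.877, while 0 day replicate 2 and 3 day replicate 1 correlated at 0.935. Genes are not independent, so these correlations describe the arrays only.

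STL1 was the only member called in a comparison or by the F test. It rose 9.89-fold at 14 days and 7.17-fold at 7 days, each against 3 days, where its signal was dim. The call at 14 days was lost in 5 of 19 alternatives of the processing and that at 7 days in 8 of 19. No member was called against 0 days, and none between 14 and 7 days. The other 8 members passed no test over all genes. GPD1, GPP2, GUT1 and GCY1 had larger values and GPD2 smaller values at 7 days than at 3 days on every array. Of all genes, 30.3% lay above and 24.8% below in this way, without overlap of the arrays.

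The glycerol/proton symporter gene STL1 (YDR536W) had signals of 46.1 and 59.6 at 0 days, 15.2 and 26.7 at 3 days, 99.3 and 210 at 7 days, and 117 and 337 at 14 days. Every array of 7 and 14 days lay above every array of 0 days, and those of 0 days lay above those of 3 days. Replicate 2 exceeded replicate 1 at each of the 4 times. The order of the mean signals was 3 days (20.9 ± 8.12), 0 days (52.8 ± 9.54), 7 days (155 ± 78.2) and 14 days (227 ± 156), all SD with n = 2. In limma's moderated test the log2 fold change at 14 days against 3 days was 3.31 ± 0.58 SE (95% interval 2.02 to 4.59, limma adjusted p = 0.0211). At 7 days against 3 days it was 2.84 ± 0.58 SE (limma adjusted p = 0.0452). The moderated F test among the 4 times called STL1 as well, with a limma adjusted p of 0.0388, and this call was lost in 8 of 18 alternatives (limma adjusted p up to 0.129).

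No pair of neighbours in that order passed the test. At 14 days against 0 days the log2 fold change of STL1 was 1.93 ± 0.58 SE (limma adjusted p = 0.102, unadjusted p = 0.00713), and at 7 days against 0 days it was 1.46 (limma adjusted p = 0.209). At 3 days against 0 days it was -1.38 (limma adjusted p = 0.690). The 14 day arrays lay on both sides of the 7 day arrays, with a log2 fold change of 0.46 (95% interval -0.82 to 1.75). The calls against 3 days rest on 2 arrays in each group. That at 14 days was lost without 3 day replicate 1 (log2 fold change 2.90, limma adjusted p = 0.0627), 3 day replicate 2 (3.74, 0.117), 14 day replicate 1 (4.07, 0.0523) or 14 day replicate 2 (2.55, 0.152). That at 7 days was lost without any 1 of the 6 arrays of 3, 7 and 14 days (limma adjusted p from 0.0602 to 0.206), with log2 fold changes from 2.28 to 3.32.

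The probe set of STL1 was dim at 3 days, at percentile 7.6 of all named genes on replicate 1 and 14.4 on replicate 2. Replicate 1, at 3.93 on the log2 scale, lay below the level of 4.16 that the mean of a probe set had to reach. Detection calls were not used here, so STL1 is not shown to be above background at 3 days, and the folds against 3 days rest on that dim level. The ribosomal RNA signal was higher on the arrays with high STL1, and its part in the result was not tested.

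**Figure D1:**
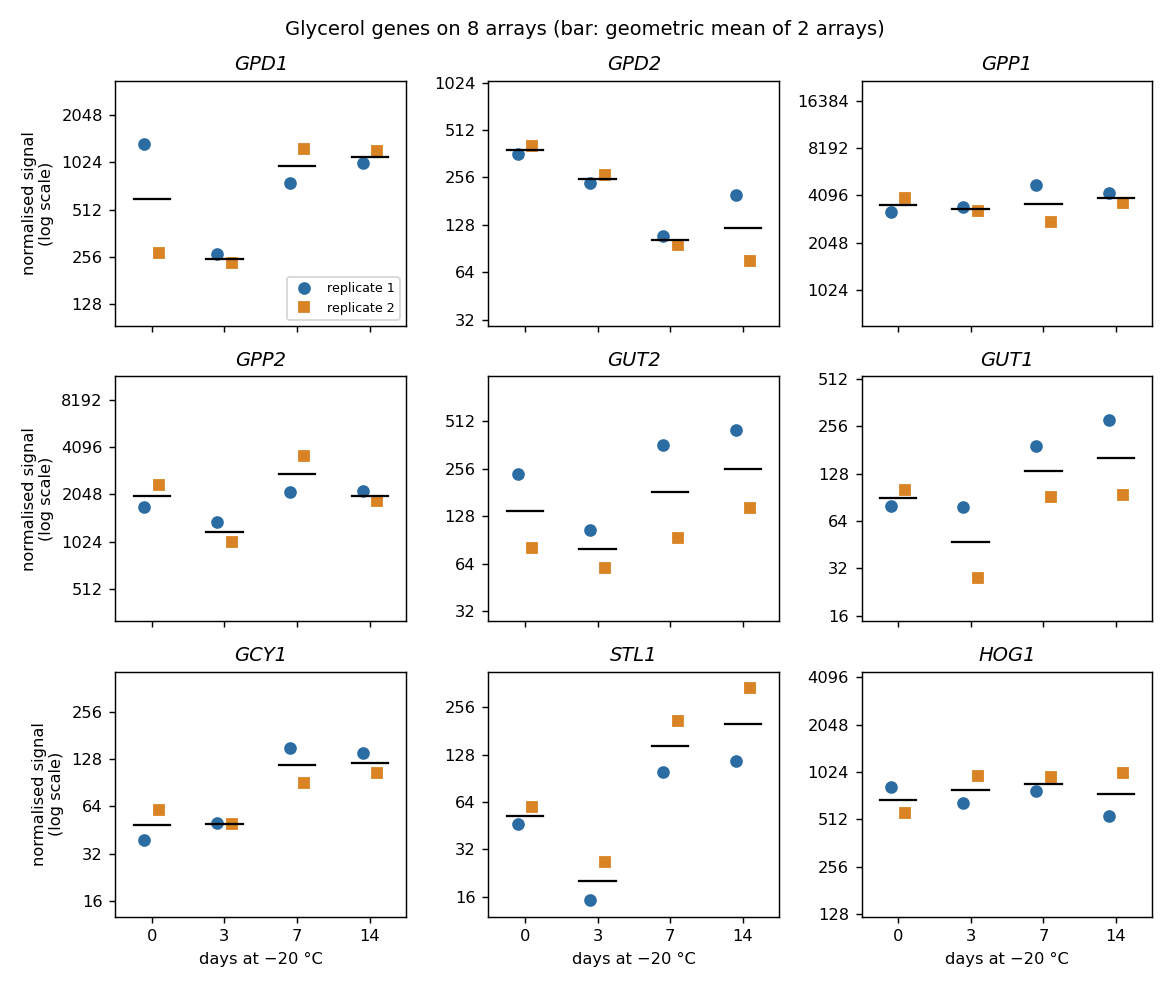
Normalised signal (log scale) of the 9 glycerol genes against days at -20 °C, 1 point per array with circles for replicate 1 and squares for replicate 2, and a bar at the geometric mean of each time. Each panel spans the same fold range, so STL1 (15.2 to 337) shows the widest spread of values and GPP1 (2788 to 4744) the narrowest.

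In glycerol synthesis no gene passed the test, and the values of GPD1 and GPD2 lay in opposite directions at 7 and 14 days against 3 days. GPD1 and GPD2 encode the NAD-dependent glycerol 3-phosphate dehydrogenases. GPD1 (YDL022W), the osmotically induced form, had signals of 1338 and 271 at 0 days, 268 and 234 at 3 days, 752 and 1244 at 7 days, and 1013 and 1212 at 14 days. All 4 arrays of 7 and 14 days lay above both 3 day arrays and above 0 day replicate 2, whereas 0 day replicate 1 was the highest of the 8. The replicate difference at 0 days was 2.30 on the log2 scale, larger than that of 95.5% of genes tested, where the median gene had 0.56.

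The value of GPD1 against 0 days depended on which 0 day array entered the fit. The log2 fold change at 14 days was 0.88 ± 0.61 SE (95% interval -0.47 to 2.24, limma adjusted p = 0.423). Without 0 day replicate 1 it was 2.04 and passed the test (limma adjusted p = 0.0361), and without 0 day replicate 2 it was -0.27. At 7 days against 0 days it was 0.68 with both arrays and -0.46 without 0 day replicate 2. The ACT1 ratio was 1.54 on 0 day replicate 1 and 2.86 on replicate 2. Its part in the difference was not tested.

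Against 3 days, whose 2 arrays were close, the log2 fold change of GPD1 was 2.15 ± 0.61 SE at 14 days (limma adjusted p = 0.0713, unadjusted p = 0.00512) and 1.95 ± 0.61 SE at 7 days (limma adjusted p = 0.127). Both values passed the threshold when either 0 day array was left out of the fit, with limma adjusted p = 0.0166 without replicate 1 and 0.0172 without replicate 2 at 14 days. In all, 5 of 19 alternatives called GPD1 at 14 days against 3 days, and 5 at 7 days against 3 days. At 3 days against 0 days the log2 fold change was -1.27 (limma adjusted p = 0.699), and it was -0.11 without 0 day replicate 1 and -2.42 without 0 day replicate 2.

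GPD2 (YOL059W), the form linked to growth without oxygen, had signals of 359 and 406 at 0 days, 235 and 265 at 3 days, 109 and 95.2 at 7 days, and 197 and 75.0 at 14 days. Both 3 day arrays lay below both 0 day arrays, and all 4 arrays of 7 and 14 days lay below both 3 day arrays. The replicates were close at 0, 3 and 7 days and apart at 14 days, where replicate 1 was the higher. The log2 fold change was -1.90 ± 0.46 SE at 7 days against 0 days (95% interval -2.91 to -0.90, limma adjusted p = 0.0898). At 14 days against 0 days it was -1.65 ± 0.46 SE (95% interval -2.66 to -0.65, limma adjusted p = 0.0887). Unadjusted p was 0.00158 and 0.00404 in limma, and the F test gave a limma adjusted p of 0.0875. GPD2 was thus not called. Its values against 0 and 3 days were negative in all 19 alternatives of the processing, none of which called it. Without 14 day replicate 2 the log2 fold change of GPD2 at 14 days was -0.96 against 0 days (limma adjusted p = 0.365) and -0.35 against 3 days, and without 14 day replicate 1 it was -2.35 and -1.74.

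Within each array, the log2 signal of GPD1 minus that of GPD2 was 1.90 and -0.58 at 0 days, 0.19 and -0.18 at 3 days, 2.78 and 3.71 at 7 days, and 2.37 and 4.02 at 14 days. All arrays of 7 and 14 days exceeded all of 0 and 3 days, with 0 day replicate 1 the nearest. The size of this difference on one array depends on the probes and sets no order between the genes, so only its shift between arrays is read, and it was not tested.

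GPP1 and GPP2 encode glycerol 3-phosphate phosphatases that are close paralogues, and probe sequences were not used here, so each probe set may read some RNA of the other gene. GPP1 (YIL053W), the more constantly expressed form, had signals of 3214 and 3938 at 0 days, 3439 and 3247 at 3 days, 4744 and 2788 at 7 days, and 4256 and 3682 at 14 days. The groups overlapped in every comparison except 14 against 3 days. There GPP1 lay above at 14 days, with a log2 fold change of 0.24 that was -0.13 on values as deposited and -0.4 with equal array medians. Its log2 fold changes against 0 days lay between -0.09 and 0.15, and the 95% interval at 14 days was -0.50 to 0.81.

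GPP2 (YER062C), the osmotically induced form, had signals of 1707 and 2346 at 0 days, 1364 and 1016 at 3 days, 2133 and 3615 at 7 days, and 2144 and 1847 at 14 days. It was lowest on both 3 day arrays. The log2 fold change at 7 days against 3 days was 1.24 ± 0.35 SE (95% interval 0.47 to 2.0, limma adjusted p = 0.0962, unadjusted p = 0.00445). At 14 days against 3 days it was 0.76 (limma adjusted p = 0.205). The 14 day mean of 1995 ± 210 lay next to the 0 day mean of 2026 ± 452 (SD, n = 2 each), with a log2 fold change of -0.01 (95% interval -0.77 to 0.76). GPP2 minus GPP1 within arrays was -0.91 and -0.75 at 0 days, -1.33 and -1.68 at 3 days, -1.15 and 0.37 at 7 days, and -0.99 and -1.0 at 14 days, highest on 7 day replicate 2.

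**Figure D2:**
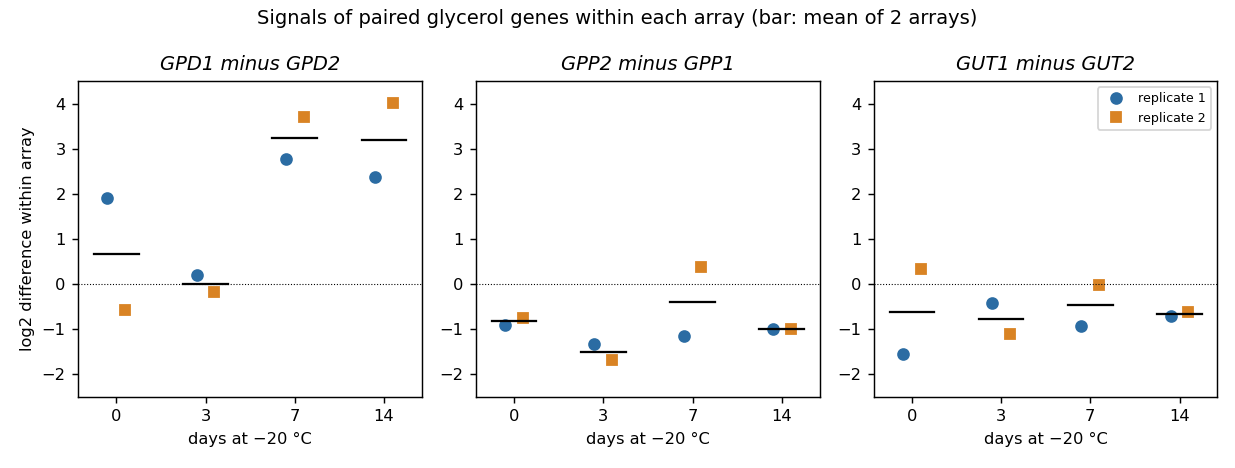
Difference of log2 normalised signals between 2 related glycerol genes within each array, against days at -20 °C, with circles for replicate 1, squares for replicate 2 and bars at the mean. GPD1 minus GPD2 was 2.37 to 4.02 on the arrays of 7 and 14 days and -0.58 to 1.90 on those of 0 and 3 days, while in the other pairs the arrays of 7 and 14 days overlapped those of 0 and 3 days.

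In glycerol use, GUT1 (YHL032C), the glycerol kinase, had signals of 80.1 and 101 at 0 days, 78.1 and 28.0 at 3 days, 192 and 91.2 at 7 days, and 279 and 93.5 at 14 days. Replicate 1 was higher than replicate 2 at 3, 7 and 14 days, and replicate 2 of 7 and 14 days lay within the 0 day range. The log2 fold change at 14 days was 1.79 ± 0.63 SE against 3 days (limma adjusted p = 0.121) and 0.84 ± 0.63 SE against 0 days (95% interval -0.55 to 2.23, limma adjusted p = 0.455). With 1 array left out, these values ran from 1.0 to 2.59 against 3 days and from 0.06 to 1.64 against 0 days, lowest without 14 day replicate 1 and highest without 14 day replicate 2.

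GUT2 (YIL155C), the FAD-dependent glycerol 3-phosphate dehydrogenase of mitochondria, had signals of 236 and 80.4 at 0 days, 105 and 60.1 at 3 days, 363 and 92.5 at 7 days, and 453 and 145 at 14 days. Replicate 1 exceeded replicate 2 at each of the 4 times. The replicate difference on the log2 scale was larger than that of 89.0% of genes at 0 days, 98.7% at 7 days and 96.0% at 14 days. The log2 fold change at 14 days was accordingly uncertain: 1.69 ± 0.75 SE against 3 days (limma adjusted p = 0.194) and 0.89 ± 0.75 SE against 0 days (95% interval -0.76 to 2.54, limma adjusted p = 0.508). With 1 array left out they ran from 0.86 to 2.52 and from 0.07 to 1.72, between the same arrays as for GUT1. Among the members, GUT2 and GUT1 followed each other more closely over the 8 arrays than GUT2 followed any other, with a root mean square difference of 0.56 between their centred log2 profiles.

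GCY1 (YOR120W) encodes an aldo-keto reductase proposed to act as a glycerol dehydrogenase in an alternative route of glycerol breakdown. Its signals were 39.0 and 60.6 at 0 days, 50.0 and 49.5 at 3 days, 150 and 90.6 at 7 days, and 139 and 105 at 14 days. All arrays of 7 and 14 days lay above all of 0 and 3 days. The log2 fold change against 0 days was 1.32 ± 0.44 SE at 14 days (95% interval 0.35 to 2.28, limma adjusted p = 0.120, unadjusted p = 0.0120) and 1.26 ± 0.44 SE at 7 days (limma adjusted p = 0.173). At 3 days it was 0.03 (95% interval -0.93 to 1.0). The value of GCY1 was above 0 in all 19 alternatives at 7 and 14 days, against 0 as well as 3 days. GCY1 passed the test only on unnormalised values, at 7 days against 0 and against 3 days and in the F test.

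HOG1 (YLR113W), the mitogen-activated kinase of the osmotic response, had signals of 822 and 564 at 0 days, 647 and 963 at 3 days, 779 and 956 at 7 days, and 541 and 1010 at 14 days. The groups overlapped in all 6 comparisons. Its log2 fold changes against 0 days were 0.21 at 3 days, 0.34 at 7 days and 0.12 at 14 days (95% interval -0.79 to 1.03), with limma adjusted p from 0.690 to 0.918. These values concern the transcript of HOG1 and not the phosphorylation that activates the kinase.

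**Figure D3:**
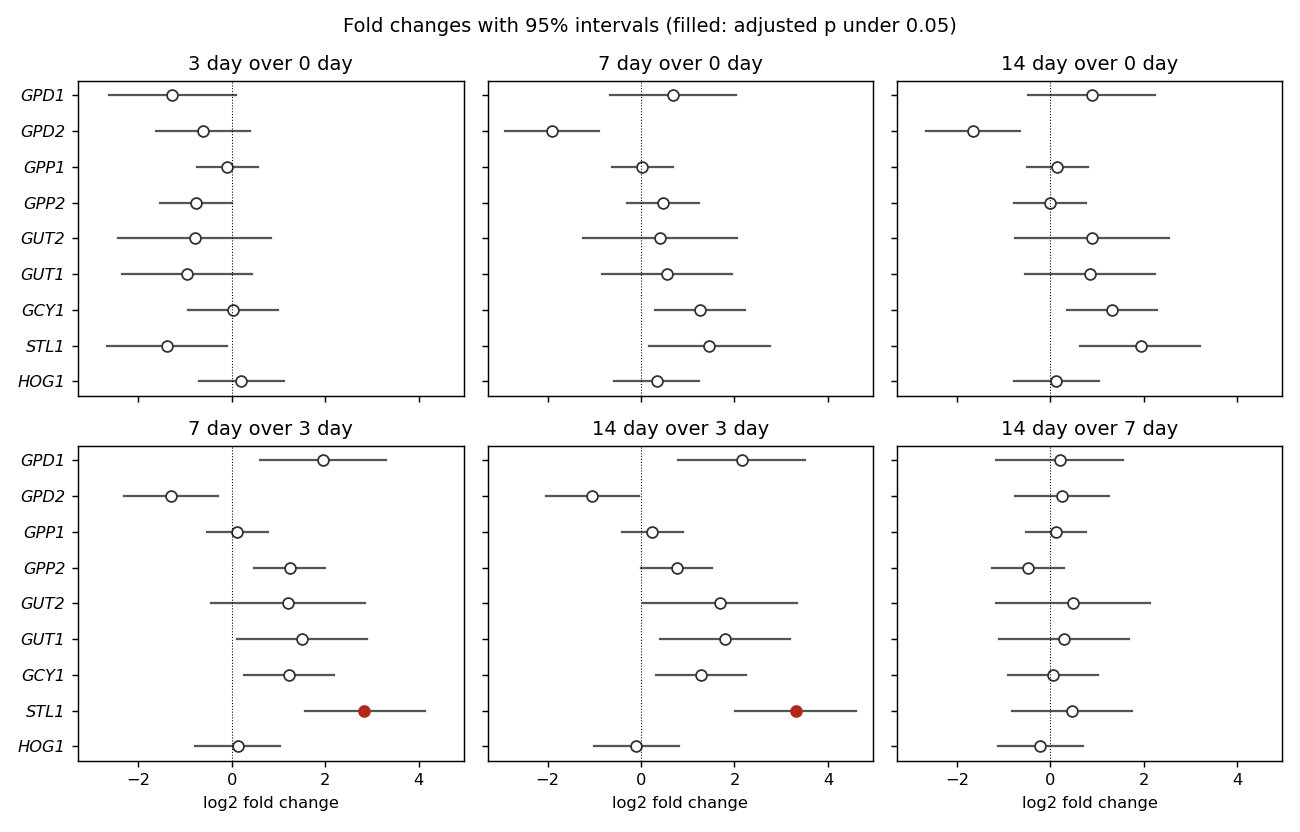
Log2 fold changes of the 9 genes in the 6 pairs of freezing times, with 95% intervals from limma and filled points where the adjusted p was under 0.05. STL1 at 7 and at 14 days against 3 days is filled (2.84 and 3.31), GPD2 lies left of 0 in the 4 comparisons of 7 or 14 days with 0 or 3 days, and all intervals of 14 against 7 days include 0.

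Members whose arrays lay wholly to one side of another time were counted beside the share of all genes that did so. At 14 days against 3 days, 7 of 9 members (77.8%) lay above without overlap, where 28.6% of all genes did, and 1 lay below, where 28.5% did. At 7 days against 3 days, 5 members lay above (55.6%, against 30.3% of all genes) and 1 below (11.1%, against 24.8%). At 3 days against 0 days, 5 members, GPD1, GPD2, GPP2, STL1 and GUT1, lay below (55.6%, against 14.2% of all genes). These comparisons share the 3 day arrays. At 3 days against 0 days some gaps were narrow, with nearest signals of 268 against 271 for GPD1 and 78.1 against 80.1 for GUT1. On values as deposited, without normalisation, the 0 and 3 day arrays of GPD1, GPD2 and GPP2 overlapped. GPP1, among the 7 members above at 14 days against 3 days, lay below instead on deposited values. These were 3453 and 3464 at 14 days against 3795 and 3793 at 3 days. Against 0 days, 2 members lay above and 1 below at 14 days (22.2% and 11.1%), where 28.0% and 22.9% of all genes did, and 2 above and 1 below at 7 days, where 29.8% and 20.5% did. STL1, GCY1 and GPD2 had all 7 and 14 day arrays on one side of all 0 and 3 day arrays, the first 2 above and GPD2 below. Of all genes, 13.2% lay above in this way and 10.4% below.

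By the test over all genes, 1 of 9 members was called at 14 days against 3 days, where 4.59% of the 5188 genes were called, and 1 at 7 days against 3 days, where 1.20% were. The F test among the 4 times called 1 member and 2.58% of all genes. Against 0 days, 0 members were called by limma at 3, 7 or 14 days, and of all genes 0%, 0.212% and 1.73% were called. At an unadjusted p under 0.05 there were 2, 3 and 3 members, where 7.02%, 19.0% and 22.2% of all genes had such a p. Against 3 days, 6 members had one at 7 days and 6 at 14 days, where 20.4% and 24.6% of all genes did. At 14 against 7 days 0 members and 0% of genes were called by limma, and 0 members had an unadjusted p under 0.05, where 0.925% of genes did. The median log2 fold change of the members was 1.28 at 14 days against 3 days, beside 0.02 for all genes. It was 0.84 at 14 days against 0 days, beside 0.11 for all genes, and -0.77 at 3 days against 0 days, beside 0.08. Single arrays moved these medians. The median at 14 days against 0 days was 0.07 without 14 day replicate 1, beside 0.14 for all genes, and 0.22 without 0 day replicate 2. At 3 days against 0 days it was -0.29 without 0 day replicate 1 and -0.39 without 3 day replicate 2. The median at 14 days against 3 days ran from 0.86 without 14 day replicate 1 to 1.5 without 14 day replicate 2.

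Related genes were read from lists. Of 22 measured genes of HOG signalling, from the sensors to the transcription factors, limma called 0 in the 6 comparisons, with 0 to 3 at an unadjusted p under 0.05 in each. Of all genes, 0% to 4.59% were called over these comparisons. The share of all genes with such an unadjusted p was 0.925% at 14 against 7 days and 7.02% to 24.6% in the others. The median log2 fold change of the 22 genes was 0.12 at 14 days against 0 days and 0.06 at 14 days against 3 days, close to that of all genes. The members with the smallest F test p were MSB2, an osmosensor of the Sho1 branch, and STE50, an adaptor of the kinase Ste11. MSB2 had signals of 328 and 310 at 0 days, 140 and 125 at 3 days, 95.7 and 229 at 7 days, and 99.1 and 77.6 at 14 days, so all arrays of the later times lay below both 0 day arrays. Its log2 fold change at 14 days against 0 days was -1.86 ± 0.44 SE (limma adjusted p = 0.0603). STE50 was at 0.67 at 14 days against 0 days (limma adjusted p = 0.687), with 3 day replicate 2 near the floor at 3.66.

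Of 13 listed genes known to be induced by osmotic stress, 12 were measured. In all, 2 of them rose and 0 fell at 14 days against 3 days, where 4.59% of all genes were called. All 12 were above 0, where 50.9% of all genes were, with a median log2 fold change of 1.29. Against 0 days, 1 rose at 14 days and 0 fell, where 1.73% of all genes were called, with a median of 0.86. At 3 days against 0 days limma called 0, and 2 had an unadjusted p under 0.05, where 7.02% of all genes did. There 10 of 12 were below 0, where 44.7% of all genes were, with a median of -0.55 that was 0.05 without 0 day replicate 1 and -1.37 without 0 day replicate 2. HSP12, encoding a small membrane-stabilising heat shock protein, had signals of 3855 and 3133 at 0 days, 3952 and 2621 at 3 days, 8056 and 8369 at 7 days, and 8872 and 7999 at 14 days. HSP12 rose at 14 days against 0 days by 1.28 ± 0.26 SE on the log2 scale (limma adjusted p = 0.0381). The other rise, GRE2, a methylglyoxal reductase, was named after its values were seen. GRE2 had signals of 417 and 600 at 14 days, against 70.3 and 113 at 3 days (log2 fold change 2.49 ± 0.58 SE, limma adjusted p = 0.0397), while 0 day replicates 1 and 2 had 320 and 82.8. As for GPD1, 0 day replicate 1 was the higher of the 0 day arrays. The call of HSP12 was lost in 9 of 19 alternatives at 14 days against 0 days, and that of GRE2 in 8 of 19 at 14 days against 3 days. The median of the list at 14 days against 0 days was 0.24 without 0 day replicate 2 and 1.63 without 0 day replicate 1.

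Of 13 genes around glycerol flux, which encode the glycerol channel and its regulators, dihydroxyacetone kinases, glycolytic enzymes and regulators, 1 rose and 0 fell at 14 days against 3 days, where 4.59% of all genes were called. Against 0 days limma called 0, and 3 had an unadjusted p under 0.05 at 14 days, where 22.2% of all genes did. The gene that rose was YPR1, an aldo-keto reductase related to Gcy1, with signals of 222 and 156 at 14 days against 55.5 and 29.0 at 3 days (log2 fold change 2.22 ± 0.52 SE, limma adjusted p = 0.0408). This call was lost in 8 of 19 alternatives. At 0 days YPR1 had signals of 141 and 56.6, with a log2 fold change of 1.06 at 14 days against 0 days (limma adjusted p = 0.257). FBA1, the aldolase that forms dihydroxyacetone phosphate, had signals of 5299 and 2846 at 14 days against 7304 and 6575 at 0 days (log2 fold change -0.84 ± 0.29 SE, limma adjusted p = 0.132).

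Of 7 genes for mitochondrial NADH dehydrogenases and for the malate and alcohol dehydrogenases of NADH shuttles, 1 rose and 0 fell at 14 days against 3 days, where 4.59% of all genes were called. The median log2 fold change was 1.30, beside 0.02 for all genes. NDE1, the external NADH dehydrogenase of mitochondria, had signals of 1271 and 932 at 14 days against 285 and 294 at 3 days (log2 fold change 1.91 ± 0.45 SE, limma adjusted p = 0.0407, lost in 8 of 19 alternatives). At 0 days NDE1 had signals of 532 and 207, with a log2 fold change of 1.71 at 14 days against 0 days (limma adjusted p = 0.0773). MDH2, the cytosolic malate dehydrogenase, was at 1.41 at 14 days against 3 days (limma adjusted p = 0.127), with 0 day signals of 3557 and 864. Of 5 genes around the acylation of glycerol 3-phosphate on the way to lipids, limma called 0 in the 6 comparisons, with 0 to 2 at an unadjusted p under 0.05 in each. Of all genes, 0% to 4.59% were called and 0.925% to 24.6% had such an unadjusted p over these comparisons. The smallest F test p in that list belonged to AYR1 (log2 fold change 2.06 ± 0.57 SE at 14 days against 0 days, limma adjusted p = 0.0892) and SCT1 (1.46, limma adjusted p = 0.156).

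**Figure D4:**
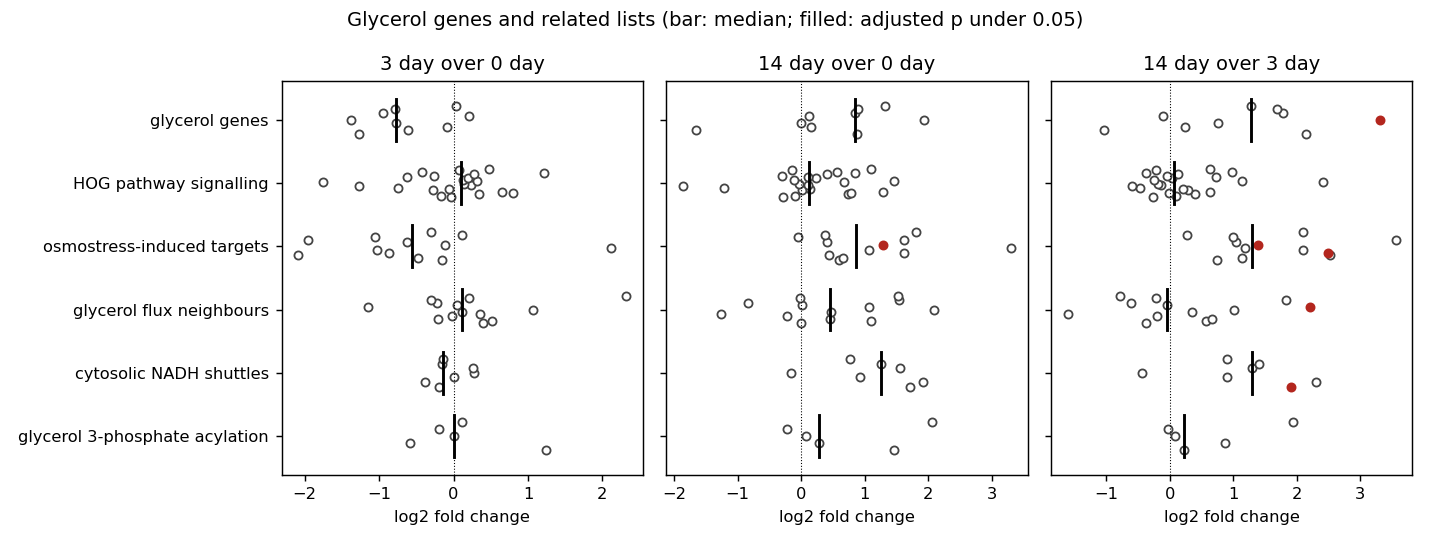
Log2 fold changes of the 9 glycerol genes and of 5 related lists at 3 days against 0 days, 14 days against 0 days and 14 days against 3 days, 1 point per gene, with a bar at each median and filled points where the limma adjusted p was under 0.05. The medians were -0.77, 0.84 and 1.28 for the glycerol genes, -0.55, 0.86 and 1.29 for the osmotic stress genes and 0.10, 0.12 and 0.06 for HOG signalling. The lists were not tested against each other. Single arrays moved the first 2 medians of the glycerol and osmotic stress genes. With 1 array left out, the median of the glycerol genes at 14 days against 3 days ran from 0.86 to 1.5.

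The genes whose centred log2 profiles over the 8 arrays lay nearest to each member were found by root mean square difference. Nearest to STL1 were SNR14 (0.37) and ISA1 (0.52), where the profile of STL1 itself had a root mean square of 1.40. For GPD1 they were IDP2 and AHC1 (0.32 each), and for GPD2 they were APT1 (0.27) and LYS21 (0.29). GUT2 lay nearest to STF2 (0.16) and GLK1 (0.22), GUT1 to OXA1 (0.27) and RDN37-1 (0.28), and GCY1 to PFS2 (0.13) and PAA1 (0.14). GPP2 lay nearest to SWP82 and YGL176C (0.21 each), GPP1 to VMA16 (0.14) and MRT4 (0.15), and HOG1 to CDC42 (0.06) and APM4 (0.10). For GUT1 and GUT2, the nearest other member was the partner gene, at rank 131 and 114 of all genes. The nearest member to STL1 was GPD1, at rank 170 with a difference of 0.93. The points share arrays and their normalisation, so these likenesses are descriptions.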

How the data were processed

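Affymetrix arrays of 8 samples, 2 at each of 4 freezing times, were used. Each deposited value is the linear intensity of a probe set. The summarising software and any scaling by the authors are not stated in the labels. Their trimmed means ran from 182 to 414, so they were quantile normalised after removal of 60 control probe sets, raised to a floor at the pooled 5th percentile and put on the log2 scale. Probe sets with means below the 25th percentile (4.16, log2) were left out. Genes were named from the platform annotation and the RefSeq table of assembly R64, and each was read by its brightest probe set.

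All 8 arrays were fitted with limma 3.58.1 in R 4.3.3, with 1 coefficient per time, an intensity trend and 4 residual degrees of freedom. Tests were two-sided, with Benjamini-Hochberg adjustment over 5188 genes per comparison and calls at an adjusted p under 0.05. The procedure was also run on simulated data, with genes drawn independently and spreads shuffled among genes. That run does not show that calls hold on these arrays. Precision is limited by the 2 arrays of each time. Deviations of same-numbered replicates correlated between times at -0.088 to 0.292, over 0.1 among 3, 7 and 14 days but not with 0 days. The samples were not treated as paired, since no label says what a replicate number shares, and these correlations do not settle the choice. The labels give no batch. The 9 members, the lists and the division into early and late times were chosen with earlier results of these data known. The genes named are the 9 members, list genes called against 0 days or by the F test, otherwise the 2 with the smallest F test p per list, and the 2 nearest profiles of each member. NDE1, YPR1 and GRE2, called only against 3 days, were described on that call after their values were seen. No probe or promoter sequences were used here.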

Additional observations from a re-analysis of the deposited data

How the results depend on the processing

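Of 1026 log2 fold changes of members recomputed over 19 alternatives and 6 comparisons, 941 kept their direction and side of the threshold, 22 passed it newly, 13 lost it and 50 changed sign. The cause of these changes was not tested, beyond the fewer arrays or genes that some alternatives use.

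On values as deposited, the median of all genes was 0.98 at 7 days and 0.59 at 14 days against 0 days and 0.63 at 7 days against 3 days, beside 0.17, 0.11 and 0.08 after normalisation. The calls numbered 5 members at 7 days and 1 at 14 days against 0 days, 5 at 7 days and 2 at 14 days against 3 days, and 5 in the F test. Of all 5191 genes tested on deposited values, 1422 and 403 were called at 7 and 14 days against 0 days. Against 3 days 620 and 295 were called, and by the F test 871. The members called at 7 days against 0 days were GPD1, GPP2, STL1, HOG1 and GCY1, with HOG1 at 1.42. Over the alternatives 0 to 6 HOG signalling genes were called in that comparison. Without the intensity trend 0 members were called at 7 or 14 days against 3 days and 0 in the F test, and without the filter on dim probe sets 0 at 7 days against 3 days and 0 in the F test. For STL1 the limma adjusted p was then 0.120 at 7 days and 0.0685 at 14 days without the trend, and 0.0658 at 7 days without the filter. Array weights and a fit of the compared groups alone each called 2, GPD1 and STL1, at 7 and at 14 days against 3 days.

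The replicate block called 1 member at 14 days against 0 days (STL1 1.93, limma adjusted p = 0.0429) and 2, STL1 and GUT2, at 14 days against 3 days (GUT2 1.69, limma adjusted p = 0.0303), and left the other counts of members as they were. In these comparisons it called 158 and 430 of 5188 genes. Same-numbered replicates deviated together at 3, 7 and 14 days (correlations 0.178 to 0.292) but not with 0 days (-0.088 to 0.086), and no label says what a number shares, so whether the block is right is unknown. Leaving out 1 array gave 0 to 1 members at 14 days against 0 days, 0 to 2 at 7 and at 14 days against 3 days, and 0 to 2 in the F test. For all genes, the count of 90 at 14 days against 0 days ran from 0 to 403 over the alternatives, that of 11 at 7 days from 0 to 1422 and that of 0 at 3 days from 0 to 16. Against 3 days, 62 at 7 days ran from 0 to 620 and 238 at 14 days from 2 to 440. At 14 against 7 days 0 ran to 6, and the 134 of the F test from 11 to 871.

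Signs that changed with the scaling belonged to values of -0.1 to 0.29 after quantile normalisation, which reached -0.40 for GPP1 and 0.49 for GPP2 under the other scalings. On values as deposited, 14 against 7 days gave -0.25 for GCY1, -0.30 for GPD1, -0.05 for GPD2, -0.27 for GPP1 and -0.02 for GUT1. GPP1 was at 0.41 at 3 days against 0 days and -0.13 at 14 days against 3 days, GPP2 at 0.49 at 14 days against 0 days and HOG1 at 0.13 at 14 days against 3 days. With equal array medians, 14 against 7 days gave -0.01 for GCY1, -0.06 for GPD1 and -0.03 for GPP1, and GCY1 was at -0.03 at 3 days against 0 days. There GPP1 was at 0.24 at 3 days, -0.13 at 7 days and -0.16 at 14 days against 0 days and at -0.37 and -0.40 at 7 and 14 days against 3 days, and GPP2 was at 0.06 at 14 days against 0 days.

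Leaving out 1 array changed the sign of further values. At 14 days against 0 days the ranges were -0.27 to 2.04 for GPD1, -0.24 to 0.22 for GPP2 and -0.33 to 0.57 for HOG1. At 7 days against 0 days they were -0.46 to 1.84 for GPD1, -0.36 to 0.42 for GPP1 and -0.57 to 1.38 for GUT2, and at 3 days against 0 days -0.29 to 0.35 for GCY1, -0.23 to 0.05 for GPP1 and -0.07 to 0.49 for HOG1. Against 3 days they were -0.27 to 0.52 for GPP1 and -0.16 to 0.42 for HOG1 at 7 days and -0.55 to 0.36 for HOG1 at 14 days. For 14 against 7 days they were -0.30 to 0.41 for GCY1, -0.18 to 0.56 for GPD1, -0.44 to 0.96 for GPD2, -0.26 to 0.53 for GPP1, -0.50 to 1.08 for GUT1, -0.50 to 1.45 for GUT2, -0.68 to 0.23 for HOG1 and -0.30 to 1.22 for STL1.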
